A study of Mus musculus with 69 samples.

Results

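Potassium channel genes were followed here as a family: every protein-coding mouse gene with a symbol starting in Kcn that was present in the count table. The table held 17634 genes, and 79 of them belonged to the family, of 94 that the annotation lists; the other 15, among them Kcna7, Kcnq1 and Kcnn4, were not analysed here. The libraries came from the RiboTag method, in which Cre recombinase puts an HA tag on the ribosomal protein RPL22, so that ribosome-bound RNA of 1 neuron class can be pulled out of whole tissue. PV-Cre mice, which mark parvalbumin interneurons, and Camk2a-Cre mice, which mark excitatory pyramidal neurons, were crossed to Rpl22-HA/HA mice, and each line was either wild type (WT) or Fmr1 knockout (KO), the mouse model of fragile X syndrome. Mice were 70 to 100 days old, and primary visual cortex (V1) and primary somatosensory cortex (S1) of an animal gave separate libraries. PV WT and PV KO had 10 libraries in each area. Camk2a WT had 8 in each area, and Camk2a KO had 6 in V1 and 7 in S1, so 69 libraries came from 37 animals, of which 32 had both areas. Neuron class and mouse line go together in this design and cannot be told apart, and every mouse carried the tagged ribosomal protein.

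Potassium channels carry outward current that repolarises a neuron after a spike and sets its resting potential. Kv3 channels open and close fast and are known for the brief spikes of fast-spiking interneurons, whereas Kv4 and Kv7 channels shape dendritic signals and slow adaptation in pyramidal neurons. Silent subunits make no channel alone but join Kv2 subunits and change their gating. FMRP, the protein that Fmr1 encodes, binds many mRNAs and is also known to act on some potassium channels. Ribosome-bound RNA is not a measure of protein or of current.

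The 79 members were put into 11 groups by role: 6 Kv1 genes (Kcna), 2 Kv2 (Kcnb), 4 Kv3 (Kcnc), 3 Kv4 (Kcnd), 9 silent subunits (Kcnf, Kcng, Kcns, Kcnv), 4 Kv7 (Kcnq), 7 EAG, ERG and ELK channels (Kcnh), 7 calcium- or sodium-activated channels (Kcnma, Kcnn, Kcnt, Kcnu), 13 inward rectifiers (Kcnj), 11 leak channels of the K2P family (Kcnk) and 13 auxiliary genes. Library totals ran from 27.64 to 49.11 M counts, with a median of 38.77 M. Fmr1 was at most 14.74 CPM (counts scaled to the TMM-corrected library total) in the KO libraries and at least 35.93 CPM in the WT libraries. Markers of PV interneurons summed to between 6680 and 9352 CPM in PV libraries and to between 72.49 and 171.2 CPM in most Camk2a libraries. In the Camk2a libraries of the 3 animals C3 (KO), C18 and C19 (WT), that sum was 401 to 1261 CPM, so class differences named below that moved by over 1.5-fold without them are also given without them. Of the 79 members, 23 share exon sequence with a gene on the opposite strand, and the counting is not stated to use strand, so reads of the partners cannot be told apart. Kcnmb4 is one of them, with 2 antisense genes.

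The start regions of 4 members that the results below turn on differ in base content around a RefSeq transcription start. They are printed 5′ to 3′ on the gene's own strand, from 250 bases before to 50 bases after the RefSeq start (GRCm38.p6), in lower case with GC boxes (GGGCGG on either strand) in capitals. Kcnc1 and Kcng4 stood for a Kv3 channel and a silent subunit of PV neurons, and Kcnmb4 and Kcnj12 for members that were lower in KO Camk2a neurons.
Kcnc1, chr7:46396218-46396517, plus strand: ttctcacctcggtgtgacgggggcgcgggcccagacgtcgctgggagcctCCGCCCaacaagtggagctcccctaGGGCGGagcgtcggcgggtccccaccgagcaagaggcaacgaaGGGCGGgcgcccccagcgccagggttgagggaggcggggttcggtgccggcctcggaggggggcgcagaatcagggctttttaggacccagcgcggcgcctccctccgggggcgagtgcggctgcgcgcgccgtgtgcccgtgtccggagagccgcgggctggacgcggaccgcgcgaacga
Kcng4, chr8:119635631-119635930, minus strand: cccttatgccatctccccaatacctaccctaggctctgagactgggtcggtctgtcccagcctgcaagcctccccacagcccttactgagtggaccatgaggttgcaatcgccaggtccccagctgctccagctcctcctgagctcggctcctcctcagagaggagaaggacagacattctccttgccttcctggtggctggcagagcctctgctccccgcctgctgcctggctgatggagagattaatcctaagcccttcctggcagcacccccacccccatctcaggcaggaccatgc
Kcnmb4, chr10:116473474-116473773, minus strand: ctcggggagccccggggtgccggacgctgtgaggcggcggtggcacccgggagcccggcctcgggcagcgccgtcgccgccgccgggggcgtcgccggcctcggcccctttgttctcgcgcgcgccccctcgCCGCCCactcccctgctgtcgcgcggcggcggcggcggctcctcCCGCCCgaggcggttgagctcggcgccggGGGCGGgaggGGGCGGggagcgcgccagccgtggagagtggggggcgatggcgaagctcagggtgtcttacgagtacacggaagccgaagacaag
Kcnj12, chr11:61065554-61065853, plus strand: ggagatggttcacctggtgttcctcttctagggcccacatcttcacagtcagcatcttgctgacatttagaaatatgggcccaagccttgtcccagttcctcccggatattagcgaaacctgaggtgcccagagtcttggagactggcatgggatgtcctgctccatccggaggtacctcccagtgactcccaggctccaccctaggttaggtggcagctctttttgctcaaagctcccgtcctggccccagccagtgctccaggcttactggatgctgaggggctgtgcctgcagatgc
The Kcnc1 window had a GC content of 74.7%, 41 CpG dinucleotides and 3 GC boxes, and the Kcnmb4 window had 79.0%, 48 CpG and 4 GC boxes. The Kcng4 window had 61.3% GC, 4 CpG and no GC box, and that of Kcnj12 had 57.0%, 4 CpG and no GC box. The Kcnj12 and Kcnmb4 windows lie inside the annotated genes and not at their 5′ ends, so their letters do not describe the outermost starts of those genes. RefSeq gave 80 such windows for 57 members. A GC box was found in 40 of the 80 (50.0%), against 35.7% of all 32851 windows; TATAAA on either strand was found in 4 of 80 (5.0%) against 13.6%; and the cAMP response element TGACGTCA was found in 0 of 80 against 1.79%. Median GC content was 60.0% for the members and 52.7% for all windows, and a match is a description of these letters only.

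The first comparison asked how the 2 neuron classes differ in potassium channel genes. Kcnc1 and Kcnc2, several Kv1 genes and the subunits Kcns3, Kcng4, Kcnip1 and Kcnmb2 were higher in PV neurons, and Kcnb2, Kcnq5 and most silent and EAG-type genes were higher in Camk2a neurons. In WT V1, 62 of 72 members tested passed an adjusted p of 0.05 (edgeR quasi-likelihood test with sex as a covariate, Benjamini-Hochberg adjustment over all genes tested), 25 higher in PV and 37 lower. Over all genes 77.3% passed, 39.8% higher and 37.5% lower, so passing was common everywhere. The members differed in size: their median absolute log2 difference was 1.41, against 0.60 over all genes tested. The other 7 members, Kcne1l, Kcnj5, Kcnj8, Kcnj13, Kcnk5, Kcnk15 and Kcnmb1, were below the filter on low counts in that comparison.

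In WT S1, 64 of 73 members passed (27 higher, 37 lower in PV), where 77.2% of all genes did (39.1% higher, 38.1% lower). In KO V1 the count was 64 of 74 (27 higher, 37 lower) beside 74.3% of all genes (38.3% and 35.9%). In KO S1 it was 63 of 72 (26 higher, 37 lower) beside 77.7% (39.8% and 37.9%). The median absolute differences of the members were 1.59, 1.56 and 1.43, against 0.57, 0.61 and 0.59 for all genes. Altogether 57 members passed in the same direction in all 4 class comparisons, 23 higher in PV and 34 lower. This was not counted over all genes. Between WT and KO mice of V1, which share no libraries, 61 members were called in both, 98.4% of the 62 WT calls and 95.3% of the 64 KO calls, all 61 in the same direction. Over all genes tested in both, 87.9% of the WT and 90.9% of the KO calls were shared, 11015 of 11031 in the same direction. In single libraries of WT V1, 21 members had every PV library above every Camk2a library, 30 had every PV library below, and 28 overlapped. Such separation was not counted over all genes, so these numbers describe the members only.

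**Figure D1:**
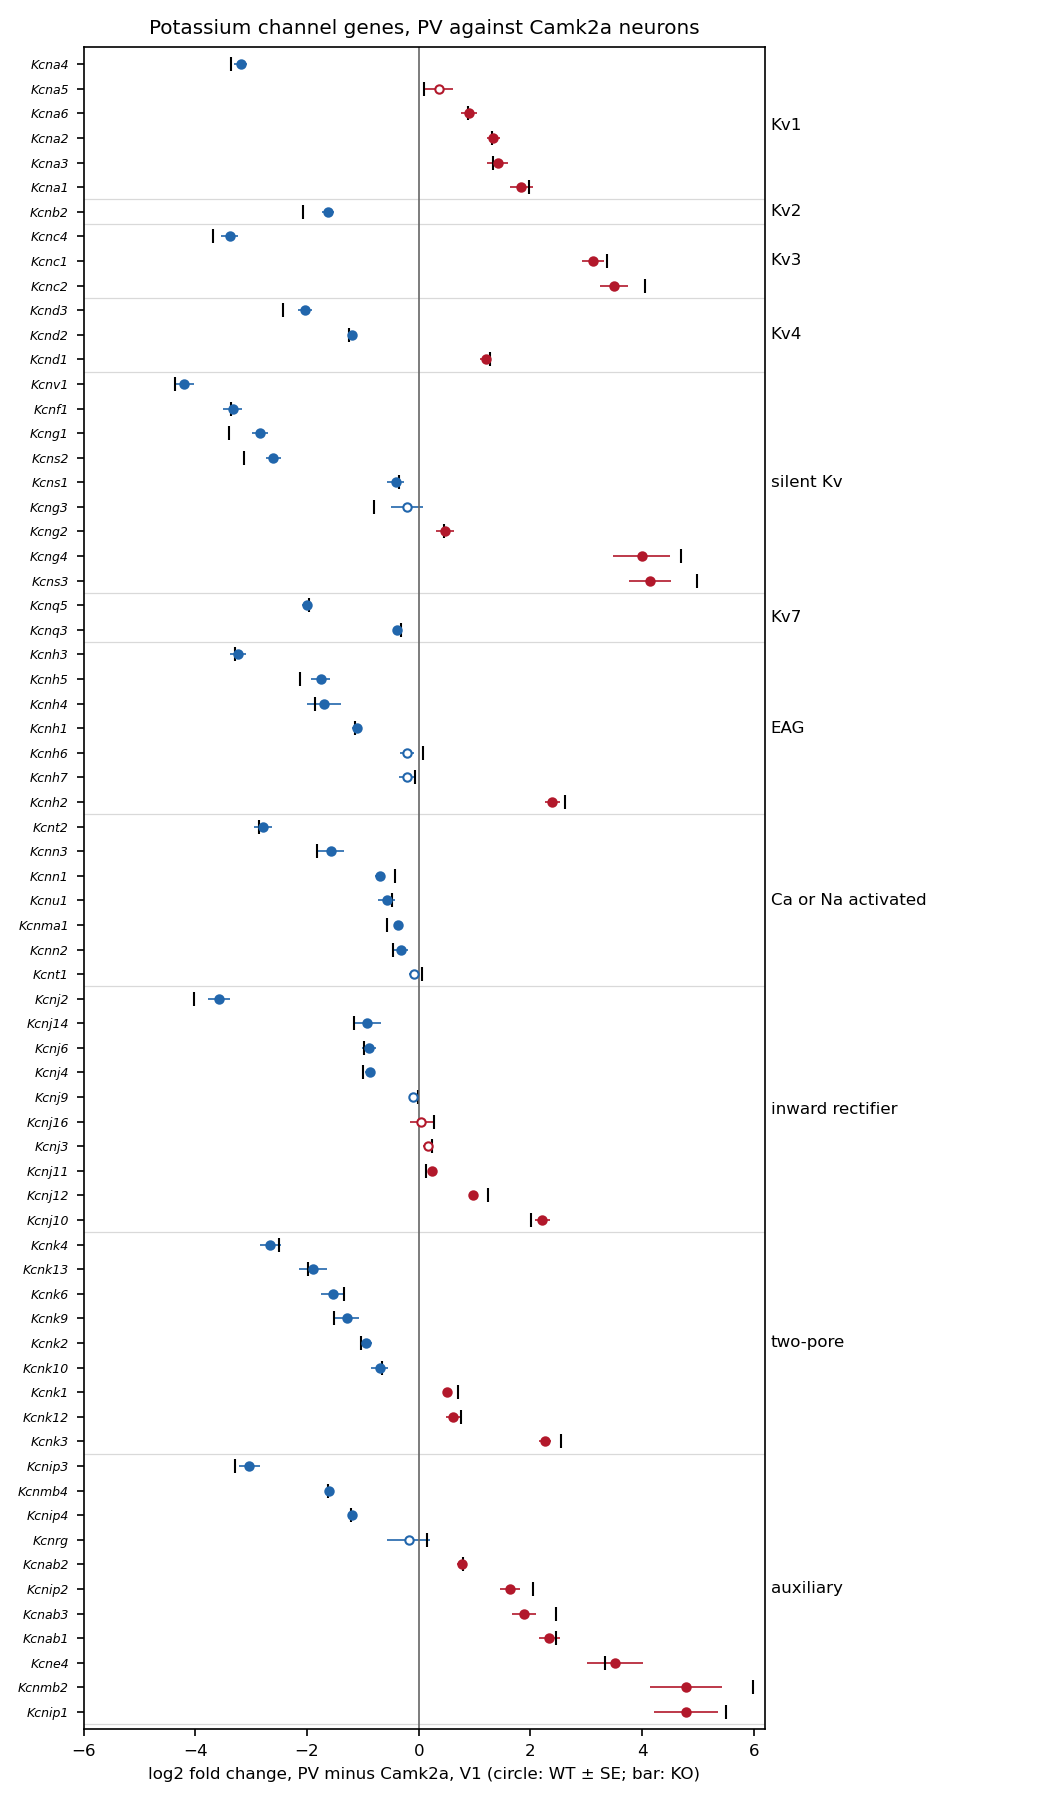
Log2 difference, PV minus Camk2a, in V1 for the members shown, ordered by role group; circles are WT with their SE, filled where the adjusted p was under 0.05, and the short vertical bars are the KO values. Kcnip1 and Kcnmb2 (both 4.79) and Kcns3 (4.14) stand farthest right, and Kcnv1 (−4.20) farthest left.

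Kv3 channels supply the fast repolarisation of fast-spiking cells, and Kcnc1 and Kcnc2 were higher in PV neurons. Kcnc1 (Kv3.1) ranged from 1472 through a median of 1754 to 2305 CPM in the 10 PV WT V1 libraries and from 136.2 through 167.8 to 332.2 CPM in the 8 Camk2a WT V1 libraries. The ranges lay far apart, and the log2 difference was 3.12 (SE 0.20, edgeR adjusted p = 1.42e-10). Kcnc2 (Kv3.2) had 919.5 ± 119.7 CPM in PV and 88.62 ± 45.84 CPM in Camk2a neurons (SD, n = 10 and 8). In that gene too a few Camk2a libraries were high: the 2 WT V1 libraries of C18 and C19 had 160.8 and 160.9 CPM, and the other 6 had 54.72 to 88.87 CPM. Kcnc4 (Kv3.4) went the other way, from 5.88 through 11.62 to 17.57 CPM in PV and from 93.1 through 128.0 to 147.6 CPM in Camk2a neurons. Its log2 difference was −3.38 (SE 0.16), in the opposite direction to that of Kcnc1. Without the libraries of C3, C18 and C19 the differences of Kcnc1 and Kcnc2 in WT V1 were 3.39 and 3.86.

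Kv1 channels sit at axons and terminals and hold back repetitive firing. Kcna1, Kcna2, Kcna3 and Kcna6 were higher in PV neurons of all 4 comparisons, by 1.84, 1.34, 1.41 and 0.90 log2 in WT V1. Kcna2 was the most abundant of them, at 1068 ± 159.4 CPM in PV against 435.5 ± 100.4 CPM in Camk2a neurons. Kcna1 had 237 ± 65.44 CPM in PV and 69.62 ± 23.36 CPM in Camk2a neurons. Kcna4, the subunit that gives fast inactivation, was lower in PV: 1.72 through 2.87 to 3.41 CPM, against 21.03 through 26.31 to 33.61 CPM in Camk2a neurons (log2 difference −3.19, SE 0.11, edgeR adjusted p = 2.87e-15). Of the Kv2 genes, which carry delayed rectifier current of cell bodies, Kcnb2 was lower in PV by −1.63 (SE 0.11).

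The silent subunits, which act by joining Kv2, split by gene. Kcns3 had 58.67 ± 6.84 CPM in PV WT V1 libraries and 3.53 ± 2.95 CPM in Camk2a WT V1 libraries. Kcng4 had 94.29 ± 61.52 CPM and 5.58 ± 4.41 CPM. Both were called higher in PV in all 4 comparisons, and Kcng2 was higher by a smaller 0.47 log2. Without C18 and C19 their Camk2a WT V1 means fell to 2.00 CPM for Kcns3 and 3.28 CPM for Kcng4, and the differences without C3, C18 and C19 were 4.86 and 4.70. Lower in PV were Kcnv1, Kcnf1, Kcng1, Kcns2 and Kcns1, by −4.20, −3.33, −2.84, −2.60 and −0.42. Kcnv1 (Kv8.1) was the member with the largest deficit in PV, at 3.84 through 9.23 to 14.81 CPM against 140.3 through 184.0 to 210.5 CPM in Camk2a neurons.

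**Figure D2:**
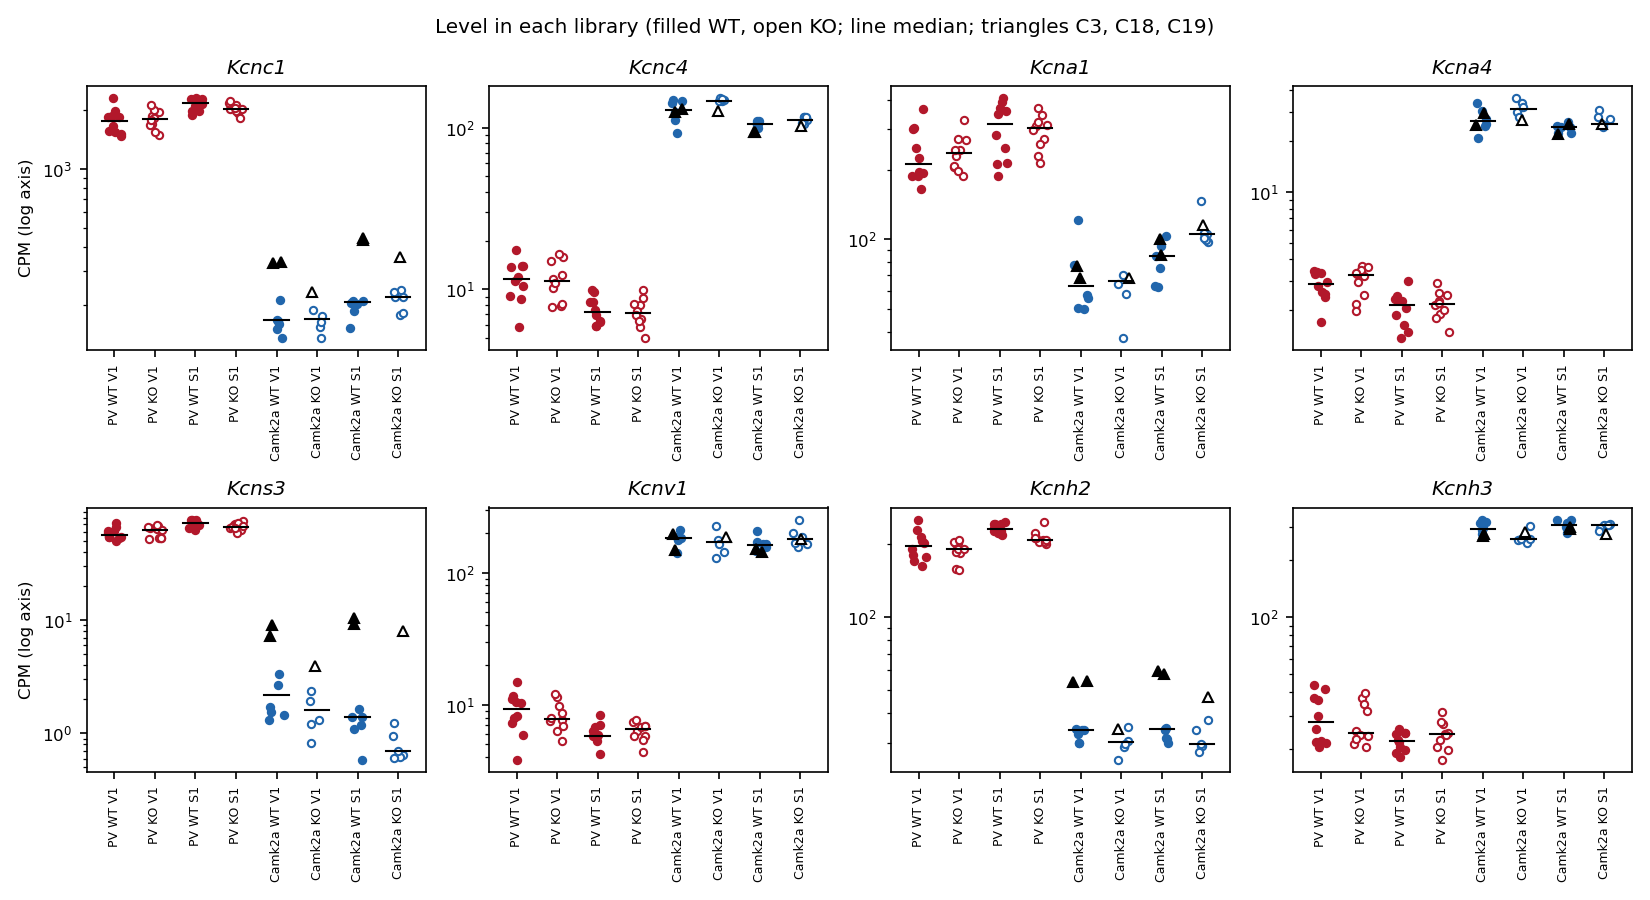
CPM (log axis) of 8 members in each library of the 8 groups, red for PV and blue for Camk2a, filled for WT and open for KO, with the median as a line and triangles for the animals C3, C18 and C19. Kcnc1, Kcna1, Kcns3 and Kcnh2 are high in PV libraries and Kcnc4, Kcna4, Kcnv1 and Kcnh3 in Camk2a libraries, and the triangles lie toward the PV level for Kcnc1 and Kcns3.

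Kv4 channels carry the transient A-type current of dendrites. Kcnd2 and Kcnd3 were lower in PV by −1.20 and −2.03, at 74.31 ± 7.66 against 176.1 ± 12.19 CPM and 20.36 ± 4.01 against 85.69 ± 11.51 CPM, while the less abundant Kcnd1 was higher by 1.20. Their calcium-binding partners, the KChIP genes, also split: Kcnip1 was higher in PV by 4.79 (SE 0.57) and Kcnip2 by 1.63, and Kcnip3 and Kcnip4 were lower by −3.03 and −1.19. Kcnip1 ran from 110.5 through 115.6 to 195.2 CPM in PV libraries and from 0.975 through 2.26 to 14.91 CPM in Camk2a libraries, where the 2 high values, 13.45 and 14.91 CPM, belonged to C18 and C19. The other 6 Camk2a libraries averaged 1.81 CPM, and without C3, C18 and C19 the difference of Kcnip1 was 6.08 (SE 0.22).

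Kv7 channels carry the M-current that limits repetitive firing. Kcnq5 and Kcnq3 were lower in PV by −2.0 and −0.38, and Kcnq5 had 48.4 ± 7.19 CPM in PV against 201.6 ± 33.05 CPM in Camk2a neurons. Among EAG-type channels, which regulate excitability, Kcnh3, Kcnh5, Kcnh4 and Kcnh1 were lower in PV, by −3.23, −1.75, −1.69 and −1.11. Kcnh2 (ERG1), widely known for its part in cardiac repolarisation, was the single member of its group that was higher, at 197.7 ± 27.92 CPM against 37.86 ± 10.09 CPM. Its difference was 2.39 (SE 0.14), and 2.59 without C3, C18 and C19. Kcnh7, at 219.3 ± 41.8 CPM in PV and 264.6 ± 72.14 CPM in Camk2a neurons, was not called in WT V1.

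Channels opened by calcium or sodium give afterhyperpolarisation after spikes. Kcnt2, Kcnn3, Kcnn1 and Kcnma1 were lower in PV in all 4 comparisons, by −2.79, −1.57, −0.69 and −0.37, and no member of the group was called higher in all 4. Kcnma1, which encodes the pore of the large-conductance BK channel, was the most abundant, at 316.1 ± 39.74 CPM in PV and 422.7 ± 30.09 CPM in Camk2a neurons. The BK beta subunits differed far more than the pore: Kcnmb2, which makes BK channels inactivate, had 22.8 ± 2.06 CPM in PV and 0.949 ± 1.43 CPM in Camk2a neurons (log2 difference 4.79, SE 0.64). That Camk2a mean rests on C18 and C19, at 3.00 and 3.51 CPM: the other 6 libraries averaged 0.181 CPM, and without C3, C18 and C19 the difference of Kcnmb2 was 7.00 (SE 0.24). Kcnmb4 had 21.05 ± 3.09 against 62.49 ± 6.74 CPM (−1.60, SE 0.07). The Kv1 beta subunits Kcnab1, Kcnab3 and Kcnab2 were higher in PV by 2.34, 1.88 and 0.78.

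Inward rectifiers hold the resting potential near the potassium equilibrium. Kcnj2, Kcnj14, Kcnj6 and Kcnj4 were lower in PV by −3.58, −0.93, −0.90 and −0.88, and Kcnj2 had 1.8 ± 0.61 CPM in PV against 22.39 ± 5.25 CPM in Camk2a neurons. Kcnj12 was higher in PV by 0.98. The G-protein-gated subunits Kcnj3 (271.3 ± 28.35 against 246.8 ± 31.82 CPM) and Kcnj9 (325.9 ± 33.06 against 348.8 ± 21.8 CPM) were abundant in both classes and not called in WT V1. Kcnj10, the glial Kir4.1 gene, was also higher in PV libraries, by 2.21 (SE 0.14): 20.42 ± 3.58 against 4.62 ± 1.18 CPM. Summed astrocyte markers were 217.7 to 305.8 CPM in PV and 69.37 to 148.7 CPM in Camk2a libraries, and their part in the Kcnj10 difference was not tested. Of the 7 markers summed, Aldoc was the largest in both classes, at medians of 176.1 and 60.58 CPM. Aldh1l1 alone ran the other way, at medians of 7.45 CPM in PV and 31.55 CPM in Camk2a libraries. Kcnj16, another glial rectifier, was not called in WT V1 (0.04, SE 0.21). Its difference was 0.28 in KO V1, 0.54 in WT S1 and 1.00 in KO S1. Without C3, C18 and C19 the S1 values were 0.54 in WT (edgeR adjusted p = 0.0338) and 1.08 in KO (edgeR adjusted p = 8.19e-05). Kcnj8, a vascular gene, was called in KO V1 only (2.72, SE 0.60, edgeR adjusted p = 0.000408) and was under the filter in the other 3 comparisons; summed vascular markers were 13.77 to 43.74 CPM in PV and 7.08 to 12.73 CPM in Camk2a libraries.

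K2P leak channels set resting conductance. Kcnk3 (TASK-1), Kcnk12 and Kcnk1 were higher in PV by 2.26, 0.61 and 0.51, and Kcnk3 had 166.7 ± 24.93 CPM against 35.14 ± 5.26 CPM. Kcnk4 (TRAAK), Kcnk13, Kcnk6, Kcnk9 (TASK-3) and Kcnk2 (TREK-1) were lower, by −2.66, −1.89, −1.54, −1.28 and −0.94. The TASK genes thus differed in opposite directions, Kcnk9 with 39.28 ± 17.33 CPM in PV and 101.1 ± 7.86 CPM in Camk2a neurons. Kcnk13, known from microglia, was at 0.748 ± 0.34 and 3.02 ± 1.10 CPM, while summed microglial markers ran the other way, at 28.44 to 54.14 CPM in PV and 15.47 to 20.41 CPM in Camk2a libraries. Kcnk10 (TREK-2) took a different sign in the 2 areas: −0.70 (SE 0.15) in WT V1 and −0.66 (SE 0.15) in KO V1, but 0.28 (SE 0.15, adjusted p = 0.11) in WT S1 and 0.32 (SE 0.12, adjusted p = 0.0221) in KO S1.

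Corrected for transcript length, the order of genes within a class could be compared. Among the members named here, the highest in PV WT neurons were Kcnab2 (252.6 CPM per kb of exon), Kcnc1 (205.4), Kcnab3 (168.3) and Kcnc2 (118.4), followed by Kcna2, Kcnip2, Kcnj9, Kcnk1 and Kcna1 between 93.94 and 56.34. In Camk2a WT neurons they were Kcnab2 (137.4), Kcnj9 (88.02), Kcnj4 (79.57), Kcnab3 (71.94) and Kcnip3 (59.83), followed by Kcnh3, Kcnf1 and Kcnj3 between 52.25 and 50.11. The last 3 lay too close to be ordered. Kcnc1 and Kcnc2 were thus among the first genes of this order in PV neurons and were not named among those of Camk2a neurons, where the silent subunit Kcnf1 was. These levels use the union of all annotated exons, whatever isoform is expressed.

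**Figure D3:**
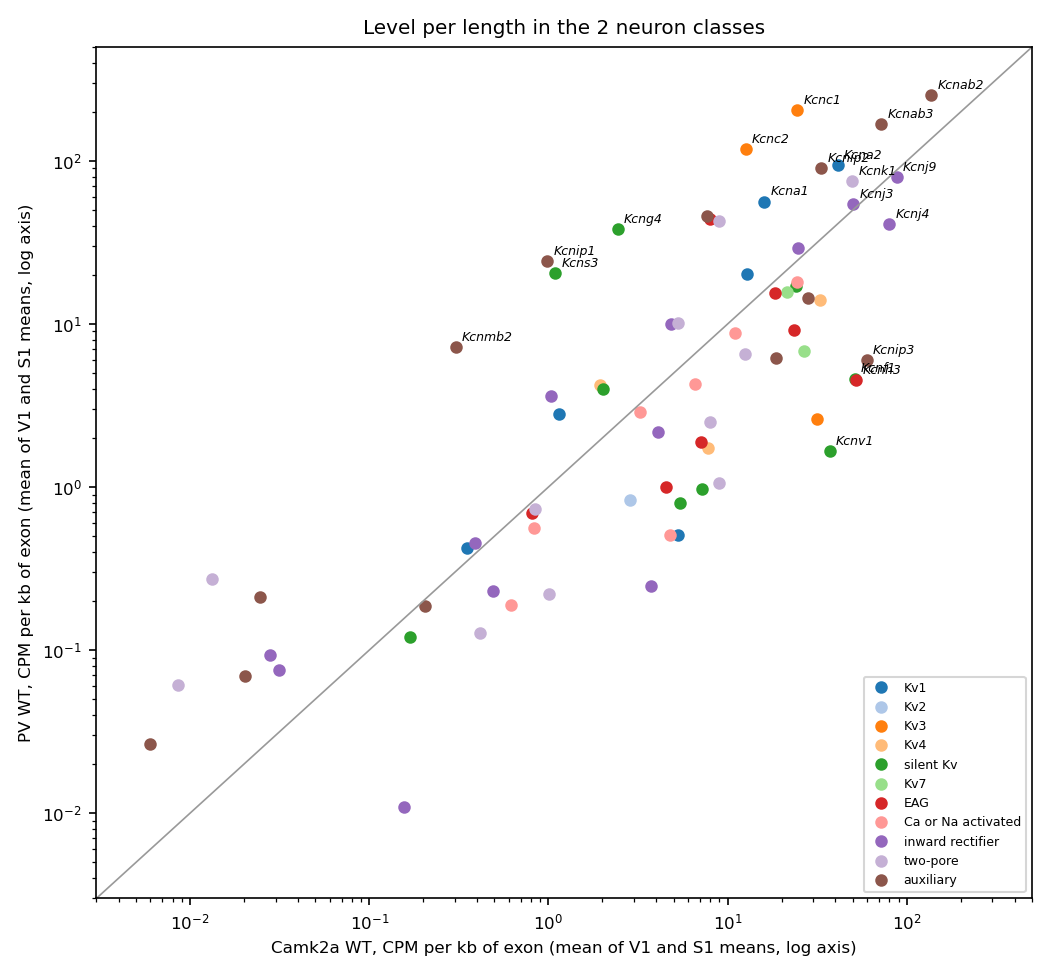
Level of each member per kb of exon (log axes; mean of the V1 and S1 group means) in Camk2a WT neurons against PV WT neurons, coloured by role group, with the line of equal level. Kcnc1 (205.4 CPM per kb in PV) lies far above the line and Kcnv1 far below it, while Kcnj9 lies near it.

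Genes that are known to partner these channels were counted beside them. Of 27 listed, 25 were tested in WT V1, 10 called higher in PV and 14 lower, beside 39.8% and 37.5% of all genes. The BK gamma subunit Lrrc38 was higher in PV by 5.19, Lgi2 by 2.30 and Cntnap2, which anchors Kv1 channels beside nodes, by 1.77. Lrrc55, another BK gamma subunit, was lower by −2.49, the Kv2 partner Amigo2 by −1.90 and Lgi1 by −1.82. BK beta and gamma subunits thus each had a gene higher in PV and a gene higher in Camk2a neurons.

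The second comparison asked whether loss of Fmr1 changed these genes. It changed few, and by less than the class differences: Kcng4, Kcnb2 and Kcne4 were lower in KO PV neurons, and in KO Camk2a neurons Kcns2 was higher and Kcnmb4 and Kcnj12 lower. For each animal with both areas the V1 and S1 counts were summed, which left 10 WT and 9 KO animals in the PV line and 7 WT and 6 KO animals in the Camk2a line. In PV neurons 3 of 75 members passed, all 3 lower in KO, beside 1.36% of all genes (1.05% lower). The median absolute log2 change was 0.07 for members and 0.07 for all genes. In Camk2a neurons 3 of 72 passed, 1 higher and 2 lower, beside 4.11% of all genes (2.05% higher and 2.05% lower), so the share of members was near that of all genes.

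Kcng4 (chr8:119623854-119635680 in mm10, minus strand), a silent subunit that joins Kv2 channels, ran from 119.0 through a median of 144.5 to 173.3 CPM in the 10 WT animals and from 86.63 through 105.5 to 132.7 CPM in the 9 KO animals of the PV line. All but 1 KO animal lay under every WT animal. The log2 change was −0.44 (SE 0.08, edgeR adjusted p = 0.00485). Kcnb2 (chr1:15287254-15723750, plus strand), the Kv2.2 pore subunit, ran from 10.25 through 12.23 to 14.6 CPM in WT and from 9.19 through 10.08 to 11.55 CPM in KO, with 6 of 9 KO animals under every WT animal. Its log2 change was −0.31 (SE 0.06, edgeR adjusted p = 0.00977). A silent subunit and a Kv2 subunit were therefore both lower in the same animals' PV neurons. Kcne4 (chr1:78816758-78820028, plus strand), a small auxiliary subunit, was near the limit of counting, at 0.325 through 0.566 to 0.769 CPM in WT and 0.169 through 0.280 to 0.463 CPM in KO. Its log2 change was −0.85 (SE 0.21, edgeR adjusted p = 0.0426), and leaving out single animals ended this call in 12 of 19 cases.

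In the silent group, 8 of 9 genes had a negative change in PV neurons, beside 48 of all 75 members tested, though Kcng4 alone passed. The median of the group was −0.10. By area, 8 of 9 were negative in PV V1 and 5 of 9 in PV S1. Kcnc1 had 1921 ± 133.8 CPM in WT and 1911 ± 101.9 CPM in KO PV animals, a change of −0.01 (SE 0.04, adjusted p = 0.973). The animals C3, C18 and C19, with their higher PV markers, weighed on this gene in the Camk2a line: its change there was −0.19 (SE 0.26) and turned to 0.09 without them.

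In Camk2a neurons Kcns2 (chr15:34837355-34843407, plus strand), a silent subunit, ran from 36.06 through 39.9 to 41.42 CPM in WT and from 46.89 through 52.05 to 65.6 CPM in KO animals. The groups did not overlap, and the log2 change was 0.44 (SE 0.07, edgeR adjusted p = 0.00383). In PV neurons Kcns2 was at 4.58 to 7.51 CPM in WT and 3.61 to 6.33 CPM in KO, a change of −0.16 (SE 0.09, adjusted p = 0.504). The difference between these changes, tested in 1 model, was −0.61 (SE 0.13, edgeR adjusted p = 0.0186), and Kcns2 was the only one of 79 members to pass that test, beside 0.832% of all genes. Without C3, C18 and C19 it was −0.58 (adjusted p = 0.066), so no member then passed.

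Kcnmb4 (chr10:116417861-116473878, minus strand), the neuronal BK beta subunit, ran from 54.94 through 63.75 to 70.43 CPM in WT and from 46.21 through 52.35 to 57.85 CPM in KO Camk2a animals, with 5 of 6 KO animals under every WT animal. Its log2 change was −0.27 (SE 0.06, edgeR adjusted p = 0.0306). Kcnj12 (chr11:61022564-61071131, plus strand), the Kir2.2 rectifier, ran from 11.44 through 13.36 to 15.07 CPM in WT and from 8.40 through 9.96 to 12.26 CPM in KO, a change of −0.38 (SE 0.10, edgeR adjusted p = 0.0446). Here too 5 of 6 KO animals lay under every WT animal. Both calls rest on few animals: without C3, C18 and C19 the adjusted p of Kcnmb4 was 0.097 and that of Kcnj12 0.148, and leaving out single animals ended the call of Kcnmb4 in 7 and of Kcnj12 in 10 of 13 cases. Kcns2 and, in PV neurons, Kcng4 and Kcnb2 lost their calls in none. Summed astrocyte markers were also lower in KO Camk2a libraries, at 75.1 to 105.8 CPM against 115.5 to 148.7 CPM in WT S1 and at 69.37 to 112.3 CPM against 105.0 to 127.8 CPM in V1. Over all Camk2a libraries Aldoc and Aldh1l1 had medians of 60.58 and 31.55 CPM, and the other astrocyte markers 9.31 CPM or less. The sum thus rests mainly on Aldoc and Aldh1l1. Oligodendrocyte markers averaged 265.0 against 353.4 CPM in S1 and 274.8 against 362.9 CPM in V1; the part of these markers in the changes of Kcns2, Kcnmb4 and Kcnj12 was not tested.

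Channels that are often discussed with FMRP changed little. Kcnd2 changed by −0.03 (SE 0.05) in PV and 0.04 (SE 0.08) in Camk2a neurons, and Kcnt1, the sodium-activated Slack channel, by −0.02 (SE 0.05) and −0.15 (SE 0.05, adjusted p = 0.0938). For Kcnt1 all 6 KO animals of the Camk2a line lay below the WT mean. Kcnma1 changed by 0.03 (SE 0.06) in PV and 0.18 (SE 0.06, adjusted p = 0.103) in Camk2a neurons, where all 6 KO animals lay above the WT mean. None of these 3 passed in either class. Among the 25 partner genes tested 1 passed in Camk2a neurons, the scaffold Ank3, at 0.52 (SE 0.08, edgeR adjusted p = 0.00383), beside 4.11% of all genes. In PV neurons none passed, beside 1.36% of all genes.

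**Figure D4:**
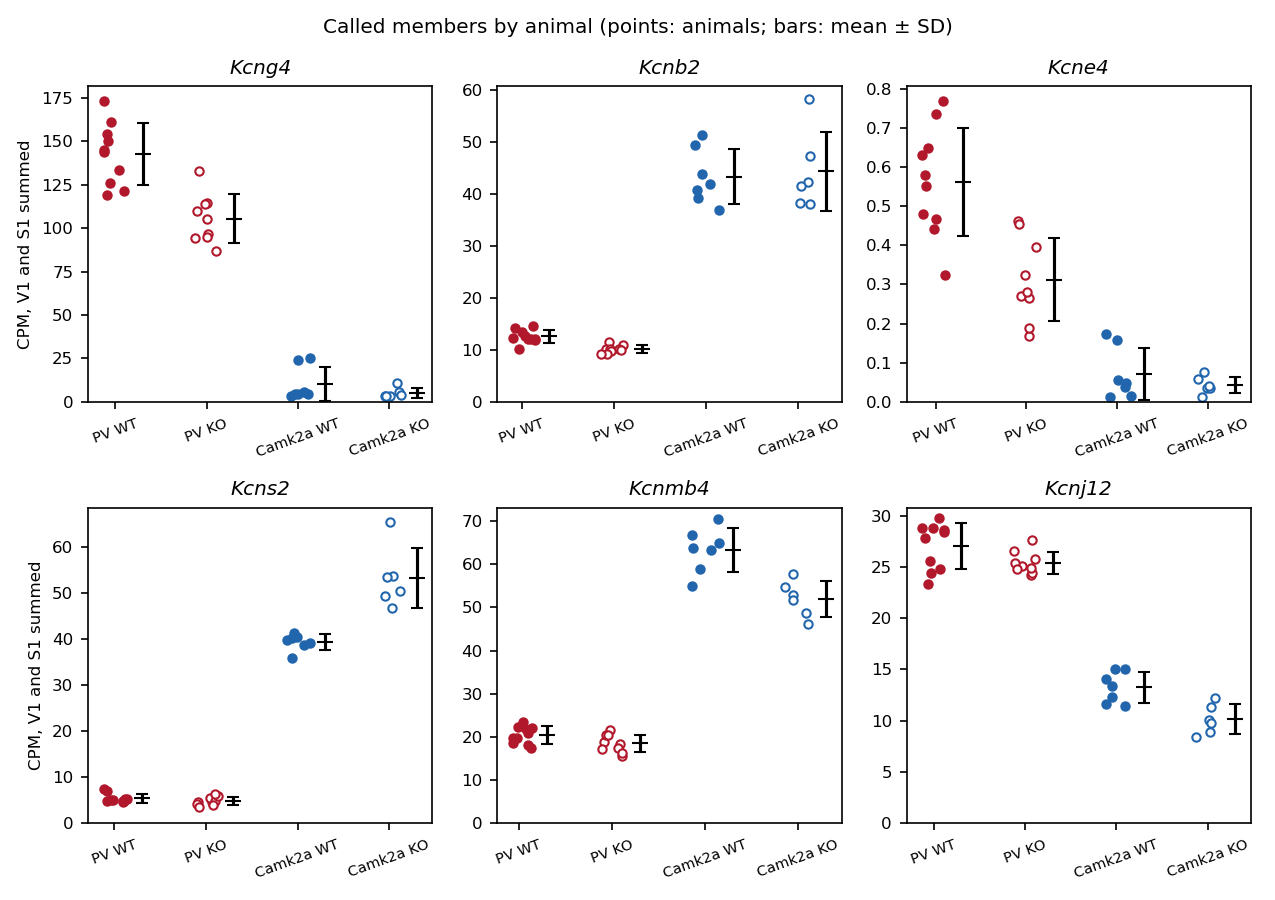
CPM of the 6 members called for genotype, per animal (points; V1 and S1 summed; filled WT, open KO) with the mean and SD beside them. Kcns2 separates all KO from all WT animals in the Camk2a line, and in the PV line 8 of 9 KO animals lie under all WT animals for Kcng4.

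Within single areas members passed in Camk2a S1 only. None of 74 passed in PV V1 (0.191% of all genes did; 8 members had an unadjusted p under 0.05) and none of 73 in PV S1 (0.77%; 11 members), by edgeR. None of 72 passed in Camk2a V1 (1.4% of all genes; 12 members at the unadjusted level). In Camk2a S1 3 of 71 passed, beside 4.09% of all genes: Kcns2 at 0.44 (adjusted p = 0.00572), Kcnmb4 at −0.35 (adjusted p = 0.00859) and Kcnj12 at −0.48 (adjusted p = 0.0349), the same genes as in the summed animals, which share these libraries. The animal pairing of V1 and S1 could also be kept as a block in place of the sum. Under that block (limma with an estimated correlation) no member passed in PV neurons, Kcng4 having −0.46 (SE 0.19, adjusted p = 0.237), and 7 passed in Camk2a neurons, with Kcns2 at 0.36 (adjusted p = 0.00209). Shares of all genes under these limma block fits are not given here, so their counts describe the members only. Without the PV animals P9, P22 and P24, whose areas are taken up next, the block gave 3 members in PV neurons: Kcng4 at −0.50 (SE 0.11, adjusted p = 0.00858), Kcnb2 at −0.32 (adjusted p = 0.0025) and, higher in KO, Kcna6 at 0.21 (SE 0.05, adjusted p = 0.0269). Kcne4 was not among them (−0.81, adjusted p = 0.29). P9, P22 and P24 were picked by their area differences, that of Kcng4 included, and this block fit holds an area term. Its calls are therefore a description.

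The last comparison set V1 against S1, first in fits that did not keep the animal pairing. In most animals Kcng4 and Kcns1 were lower, and Kcnf1, Kcnd3, Kcnb2 and Kcnn3 higher, in the V1 library, whatever the class or genotype. In PV WT neurons 36 of 73 members passed, 18 higher and 18 lower in V1, beside 20.6% of all genes (10.7% higher, 9.95% lower). The calls of smallest p among those higher in V1 were Kcnd3 at 0.68, Kcnf1 at 0.76, Kcnn3 at 1.14, Kcnb2 at 0.58 and Kcnc4 at 0.62, each of which was lower in PV than in Camk2a neurons. Among those lower in V1 they were Kcns1 at −0.47, Kcnip1 at −0.48, Kcnab2 at −0.33, Kcns3 at −0.28 and Kcnk10 at −0.61, with edgeR adjusted p between 0.00542 and 0.0068. In PV KO neurons 20 of 73 passed, 10 in each direction, beside 7.56% (3.47% and 4.09%), and 19 of them were among the 36, all in the same direction. Over all genes tested in both, 845 of the 1210 PV KO calls were also PV WT calls, all in the same direction. In Camk2a KO neurons 30 of 71 passed, 11 higher and 19 lower, beside 13.1% (6.42% and 6.65%). In Camk2a WT neurons 1 of 71 passed, Kcnn3 (SK3), at 0.92 (SE 0.17, edgeR adjusted p = 0.0385), beside 0.359% of all genes.

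The libraries labelled V1 and S1 of 4 animals ran against those of the other animals. Kcng4, chosen for this after its values were seen, was lower in the V1 library by between −1.98 and −1.0 log2 in 9 of 10 PV WT animals, and higher by 1.33 in P22. In PV KO animals it was lower by −2.18 to −0.94 in 7 of 9, and higher by 1.09 in P9 and by 0.18 in P24. It was higher by 0.90 in the Camk2a WT animal C24 and lower in the other 6, and lower by −1.91 to −0.87 in all 6 Camk2a KO animals. The same 4 animals stood apart for most members that differed by area. Of 47 members called in the other PV WT animals by the within-animal fit, P22 had the opposite sign in 43, and those animals in 0 to 7 each (log2 of CPM + 0.1). Of 41 in PV KO, P9 had the opposite sign in 38 and P24 in 29, beside 0 to 11, and of 47 in Camk2a WT, C24 had it in 42, beside 0 to 2. These lists were called on the other animals alone, so the low counts of those animals were largely set in advance. The S1 library of C24 is also the only library of the batch labelled Batch 2, so in C24 area and batch cannot be told apart. Whether the labels of the 4 animals were exchanged was not tested. Area results are therefore given with all animals, as above, and within animals without these 4.

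**Figure D5:**
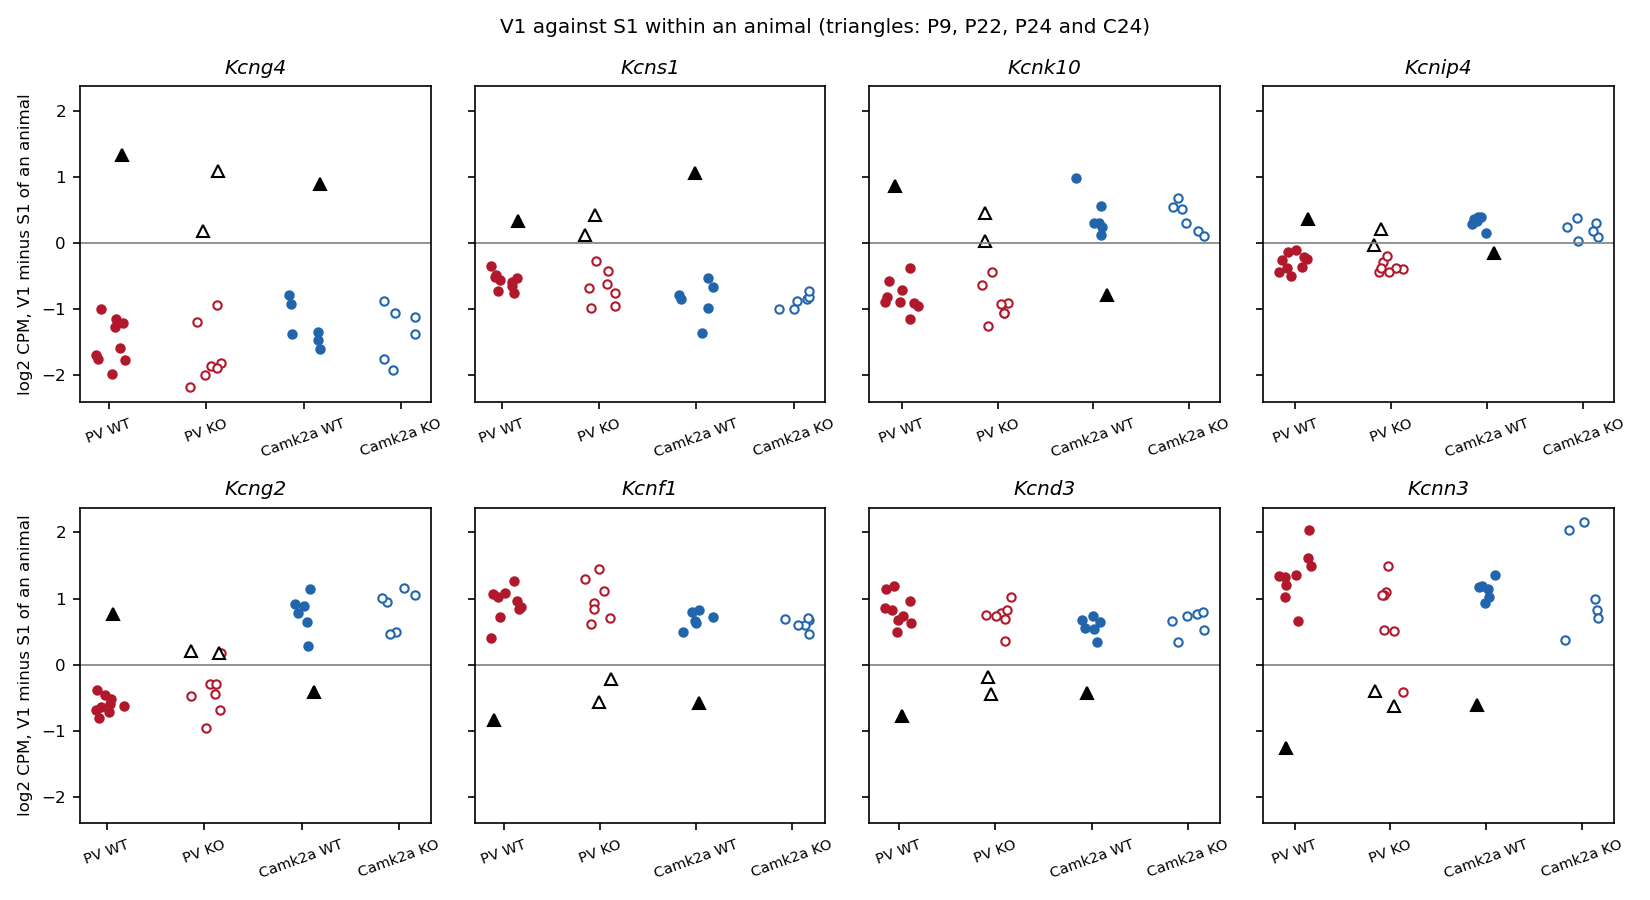
Log2 CPM of the library labelled V1 minus that labelled S1 of the same animal, for 8 members (points are animals; filled WT, open KO), with P9, P22, P24 and C24 as triangles. Kcng4 and Kcns1 lie under 0 and Kcnf1, Kcnd3 and Kcnn3 mostly over 0 in the other animals of both classes, Kcng2, Kcnip4 and Kcnk10 have opposite signs in PV and Camk2a neurons, and the triangles mostly lie on the other side of 0.

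Within animals, the pairing was kept as a block in edgeR, which used only animals with both areas. Without P9, P22, P24 and C24, 47 of 73 members passed in PV WT (42% of all genes) and 41 of 73 in PV KO (28.6%). In Camk2a neurons 47 of 72 passed in WT (33.7%) and 46 of 71 in KO (20.9%), where no animal with both areas was left out. The 4 animals were picked by the very area differences tested, so outside Camk2a KO these counts are a description. The median absolute difference of the members was 0.30, 0.28, 0.28 and 0.36 in the same order, against 0.17, 0.16, 0.14 and 0.13 for all genes. Kcng4 had the largest deficit in V1 of PV neurons, −1.48 in WT (SE 0.11) and −1.69 in KO (SE 0.17), and −1.28 (SE 0.10) and −1.35 (SE 0.14) in Camk2a neurons. In Camk2a animals, with the areas summed, Kcng4 was low, at medians of 4.61 CPM in WT and 3.63 CPM in KO. Summed PV markers of Camk2a libraries were also lower in V1, at medians of 109.5 against 159.5 CPM in WT and 79.35 against 151.2 CPM in KO. Their part in the Kcng4 difference was not tested. Kcns1, a further silent subunit, had −0.56 and −0.67 in PV and −0.86 and −0.87 in Camk2a neurons. On the higher side, Kcnf1 had 0.92 and 0.99 in PV and 0.68 and 0.62 in Camk2a neurons, Kcnd3 0.84, 0.74, 0.58 and 0.63, Kcnb2 0.72, 0.77, 0.63 and 0.39, and Kcnn3 1.34, 0.77, 1.14 and 1.15. In Camk2a KO neurons these differences had edgeR adjusted p of 9.52e-05 for Kcng4, 1.98e-06 for Kcns1 and 7.53e-06 for Kcnf1.

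Of the members called in PV WT and tested in both classes, 34 of 46 were also called in Camk2a WT (73.9% of each list), 30 of them (88.2%) with the same sign. For all genes the shared calls were 43.7% and 55% of the lists, with the same sign in 86.3%, a share close to that of the members. The 4 with opposite signs were Kcng2, Kcnip4, Kcnk10 and Kcns2. Kcng2 had −0.60 (SE 0.06) in PV WT and 0.77 (SE 0.10) in Camk2a WT neurons, with −0.42 and 0.86 in KO. Kcnip4 had −0.28 and 0.32, and −0.36 and 0.21 in KO, and Kcnk10 had −0.80 and 0.42, and −0.89 and 0.39 in KO. In KO mice 30 members were called in both classes (73.2% of the PV and 65.2% of the Camk2a list), 24 of them (80%) with the same sign, against 88.6% of the shared calls of all genes. The 6 with opposite signs in KO were Kcng2, Kcnip4, Kcnk10, Kcnc2, Kcnh1 and Kcnt2. The signs of Kcng2, Kcnip4 and Kcnk10 in each class were thus the same in WT and KO mice, which share no libraries.

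The difference in area effect between the classes was tested in WT mice, with all animals in a fit that did not keep the pairing. With all animals 5 of 74 members passed, beside 1.54% of all genes (0.716% higher, 0.827% lower): Kcng2 at −1.10 (edgeR adjusted p = 0.00848), Kcnip4 at −0.47 (0.0122), Kcnk10 at −0.89 (0.0276) and Kcnk12 at −0.61 (0.037), whose V1 minus S1 value was lower in PV, and Kcnj10 at 0.61 (0.0494), where it was higher. Within animals and without the 4, 26 members passed, 18 higher and 8 lower, beside 17.6% of all genes. Kcng2 then had −1.37 (SE 0.11) and Kcnk10 −1.23 (SE 0.14). Kcnab3, a Kv1 beta subunit, had 1.38 (SE 0.14): it was lower in V1 by −0.35 in PV WT and by −1.74 in Camk2a WT neurons. Kcnip2 differed in the same sense (0.61, SE 0.10), and Kcna6 (0.58, SE 0.06) was higher in V1 by 0.85 in PV and 0.26 in Camk2a neurons. Kcnc2 had 0.34 in PV WT and −0.16 in Camk2a WT neurons, and Kcnc1 had −0.35 and −0.39, so these Kv3 genes differed in their area pattern.

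In PV WT neurons the members higher in V1 were mostly those higher in Camk2a neurons. Of the 18 members higher in V1, 13 were lower in PV than in Camk2a neurons of KO V1, libraries that the area comparison did not use, and 3 were higher; of the 18 lower in V1, 13 were higher in PV and 4 lower. Among all genes it was 861 of 1701 and 902 of 1588, so all genes leaned the same way. In KO V1 as a whole, 37 of 74 members were lower in PV and 27 higher, beside 35.9% and 38.3% of all genes. Summed excitatory markers in PV WT libraries were 1247 through 1657 to 2401 CPM in V1 and 1250 through 1335 to 1571 CPM in S1, against 12940 to 16710 CPM in Camk2a libraries, and their part in these area differences was not tested. Kcng2, Kcnip4 and Kcnk10 had opposite area signs in the 2 classes.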

How the data were processed

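Ribosome-bound RNA was sequenced from 69 libraries, with 100-base reads. The authors deposited estimated counts per gene; STAR, Salmon, limma and mm10 are named per the submitters' processing notes, with no role or order. Of the values 71.1% were not whole, so they were rounded. Genes were filtered with filterByExpr, scaled by TMM and fitted with edgeR 4.0.16 (robust quasi-likelihood, R 4.3.3) with sex as a covariate; SE is the fold change divided by the root of F, and p was adjusted by Benjamini-Hochberg over all genes tested. CPM used TMM totals over all libraries, or over animals for the sums. Alternatives used limma 3.58.1 and DESeq2 1.42.0. V1 and S1 libraries of the same animal code are from 1 animal, so that code was the block where a block is named. The area fits with all animals had no block and treated the libraries of an animal as separate. The fits were tested on simulated data.

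The members and the role, partner and marker lists were chosen with earlier results of these data known. Genotype results name every called member and 9 listed genes; class results name, per role and direction, up to 4 called members with the smallest p in WT V1, the highest member of each class and 11 listed genes; area results name up to 5 per direction; per length, the 10 highest. Names outside this rule were chosen after their values were seen. Some members are not reported here by name, though counts and medians over the family include them.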

Additional observations from a re-analysis of the deposited data

Results flagged for a closer look

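A single animal stood apart from its group in 4 of 46 groups of members examined, where chance gives about 1 in 20. In Camk2a KO animals Kcnc1 was highest in C3, at 299.1 CPM with the next animal at 214.9 CPM, and Kcng4 was highest in C3, at 11.08 CPM with the next at 5.66 CPM. C3 is one of the 3 animals with high PV markers; the part of these markers was not tested. Kcns2 was highest in the Camk2a KO animal C4, at 65.6 CPM, with the next at 53.76 CPM. The V1 minus S1 difference of Kcng4 was highest in the PV WT animal P22, at 1.33 log2, with the next at −1.0.

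Effects that differed between the classes, by the test of the difference itself, were the genotype effect on Kcns2 (−0.61, edgeR adjusted p = 0.0186) and, in WT mice, the area effects on Kcng2 (−1.10), Kcnk10 (−0.89), Kcnk12 (−0.61), Kcnip4 (−0.47) and Kcnj10 (0.61).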

How the results depend on the processing

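Class counts stayed between 60 and 70 members under every alternative run. Beyond the within-animal fits above, shares of all genes under the alternatives are not given. A count below thus does not tell whether the members moved more than other genes. Genotype counts moved: in summed Camk2a animals DESeq2 called 6, the fit with the animal pairing as a replicate block 7, and the fit without C3, C18 and C19 1; in PV the block called 0. Leaving out single animals gave 1 to 4 members in Camk2a and 2 to 3 in PV neurons. The difference between classes called 0 without C3, C18 and C19. DESeq2 called 1 in PV S1, 1 in Camk2a V1 and 9 in Camk2a S1; PV S1 gave 1 without P9, P22 and P24; Camk2a S1 gave 7 with no sex term, and 9 both without the Batch 2 library, which is the S1 library of C24, and without both libraries of C24.

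Area counts moved most. Camk2a WT gave 21 members by DESeq2, 5 with no sex term, 0 with the block, 0 without C3, C18 and C19, 27 without the Batch 2 library, 38 without C24 and 47 with the block and without C24. PV KO gave 0 with the block, 37 without P9, P22 and P24, and 41 with the block and without them, and Camk2a KO 46 with the block. The area difference between classes gave 10 by DESeq2, 3 with no sex term, 3 with the block, 2 without C3, C18 and C19, 13 without P9, P22 and P24, 17 also without C24 and 26 with the block and without all 4. The fits without C24, and the block fits without P9, P22 and P24, were chosen after seeing the data. Beyond leaving samples out, the cause was not tested.

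Signs turned as follows. Without C3, C18 and C19, genotype values were Kcnc1 0.087 in Camk2a animals, Kcnd2 0.069 in Camk2a V1, Kcnc1 0.12 and Kcng4 0.031 in Camk2a S1, and differences between classes Kcnc1 −0.089 and Kcng4 −0.24; Kcnip1 by area was 0.069 in Camk2a WT, 0.0405 in Camk2a KO and −0.55 between classes. Between classes Kcnip1 by area was also −0.0935 with the block, −0.019 without P9, P22 and P24, −0.042 also without C24 and −0.17 with the block and without all 4. Under the block Kcnd2 was −0.0082 in Camk2a animals. Without the Batch 2 library Kcne4 by genotype between classes was 0.017 and Kcnb2 by area between classes −0.0022. Kcnd2 in PV V1 was 0.0007 without P9, P22 and P24; in Camk2a V1 Kcnb2 was −0.0040 with no sex term and −0.0045 without C24. Leaving out single animals, Kcnt1 ran from −0.0345 to 0.012 and Kcnc1 from −0.030 to 0.0070 in PV, and Kcnb2 from −0.071 to 0.095 and Kcnd2 from −0.046 to 0.10 in Camk2a neurons. Of 2399 values of single members under alternatives, 2286 kept their direction and side of the threshold, 30 lost and 64 gained a call. Depth limits Kcne4 and the members under the filter.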
